A study of Homo sapiens with 10 samples.

Results

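The comparison described here sets 2 RNA-seq libraries of K562 cells labelled enCRISPRi-LK against 2 labelled enCRISPRi-KL, both with sgRNAs to the HS2 enhancer. The members were chosen by the title of each library, and they are 4 of the 10 libraries of the series. K562 is a human erythroleukemia line that carries the BCR-ABL fusion and transcribes the embryonic and fetal globin genes. In the LK construct LSD1 is fused to dCas9 and KRAB to the MS2 coat protein MCP, which the hairpins of the sgRNA bring to the same site, and in the KL construct the places of LSD1 and KRAB are exchanged. Both groups carried all 4 HS2 sgRNAs together. The other libraries carried the same sgRNAs with dCas9-KRAB (K) or dCas9-LSD1 (L), or the nontargeting sgGal4, with 2 libraries a group. The series asks how the transcriptome changes when HS2 is perturbed, and the direct comparison asks whether the placement of the 2 repressors matters. According to the methods of the study, cells were transduced with lentivirus for the inducible dCas9 fusion, sorted, transduced again with the sgRNAs, sorted for zsGreen1 and induced with doxycycline. Each group is therefore a sorted, transduced population of 1 leukemia line. The paper counts the libraries of a group as 2 experiments, but no source says that they came from separate cultures. A p-value here rests on the spread between libraries of the same group, over all 5 groups and moderated across genes. This spread may be technical.

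HS2 is a DNase I hypersensitive site of the locus control region, the enhancer cluster that lies upstream of the β-like globin genes and drives them in erythroid cells. Its core holds neighbouring copies of a site for AP-1 and the erythroid factor NF-E2. KRAB recruits TRIM28 and a histone methyltransferase that marks silent chromatin, whereas LSD1 removes methyl groups from lysine 4 of histone H3, a mark of active enhancers.

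The core of HS2 is shown because all 4 libraries carried sgRNAs to HS2. The sequences of the sgRNAs were not at hand, so their sites were not placed, and the core was found by its motif. In the 30000 bases upstream of the start of HBE1 (GRCh37), a search for pairs of TGAGTCA, on either strand and with starts at most 20 bases apart, found 1 pair, 10.8 kb from that start. The 300 bases around it, at chr11:5301842-5302141 on the minus strand, which is the strand of the β-like globin genes, are printed with both copies in capitals. Such a pair was present in 62 of the 437089 windows of 300 bases on chromosome 11 (0.0142%), against 4.60% of windows with at least 1 copy.
HS2 core: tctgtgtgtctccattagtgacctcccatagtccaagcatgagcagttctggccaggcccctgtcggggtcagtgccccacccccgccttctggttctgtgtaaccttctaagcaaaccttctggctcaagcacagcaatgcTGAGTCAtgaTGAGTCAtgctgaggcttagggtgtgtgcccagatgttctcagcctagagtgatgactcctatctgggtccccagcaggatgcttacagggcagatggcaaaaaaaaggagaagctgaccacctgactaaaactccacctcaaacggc

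Values are TPM, a length-corrected share of the RNA in a library. The 4 libraries were alike in their overall composition. Mitochondrial genes made up 42.8% and 43.99% of the listed TPM in the LK libraries and 42.9% and 44.9% in the KL libraries. The number of genes at or above 1 TPM was 9951 and 9981 with LK and 10067 and 9982 with KL. Across the 10127 genes tested, whose mean reached 1 TPM and which are not independent replicates, log2(TPM + 1) correlated at 0.963 between the LK libraries and at 0.952 between the KL libraries, and at 0.945 to 0.949 between libraries of different groups. A difference of at least 1 on this scale was seen for 623 genes between the LK libraries, 858 between the KL libraries and 930 to 1023 in the pairs across groups. By both measures, libraries of different groups thus differed more than libraries of the same group, and the LK pair was the closest.

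The constructs were read from the genes of the effectors. ZNF10, which encodes a zinc finger protein whose KRAB domain is in wide use as a repressor, was at 36.8 and 31.5 TPM in the LK libraries and at 365 and 360 TPM in the KL libraries. All 4 libraries lay above the sgGal4 libraries, at 0.970 and 1.89 TPM, and the KL mean was 10.6 times the LK mean. KDM1A, the gene of LSD1, was at 27.4 and 30.6 TPM with LK and at 26.8 and 26.6 TPM with KL, against 25.2 and 33.5 TPM with sgGal4. The LK and KL libraries therefore differed in the level of ZNF10 transcript and lay within the range of the control for KDM1A, although both constructs carry LSD1 by their labels. ZNF10 also ran against the labels in the single-repressor groups, at 1.18 and 3.80 TPM in K and 128 and 136 TPM in L, whereas KDM1A followed the label in L, at 105 and 84.2 TPM. Because of this the groups are called the libraries labelled LK and KL, and every direction given here is a direction between these labels. Which part of the ZNF10 reads came from a transgene was not tested. The difference in ZNF10 level accompanies every other difference between the groups. The methods also describe different sgRNA vectors for LK and KL, and each group is its own sorted population. The parts of effector level, effector placement, vector and population cannot be told apart.

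Of the 10127 genes tested by limma, 39 passed an adjusted p of 0.05 (0.385%), 19 higher (0.188%) and 20 lower (0.197%) in the libraries labelled LK than in those labelled KL. At an unadjusted p under 0.05 there were 996 genes (9.84%). The size of the difference reached 1 on the log2(TPM + 1) scale for 32 of the 39, with a median of 2.16. Both LK libraries lay on the same side of both KL libraries for all 39, and for 4332 of all genes tested (42.8%), so a lack of overlap alone sets few genes apart. Differences on this scale understate those of genes with low TPM. The counts rest on all 4 libraries. Without LK replicate 1 or LK replicate 2 the number called was 3, and without KL replicate 1 or KL replicate 2 it was 4. The spread is then taken from the other groups for the library left alone. FN1 and ZNF10 passed in each of the 16 alternatives run, GMPPA in 13 and IGFBP4 in 12, and every other called gene lost its call in at least 5 of them. The direction was kept by all 39 genes wherever they were tested. The 95% confidence interval of a difference, before adjustment, had a median half-width of 1.02 for genes at 1 to 5 TPM, 0.78 at 5 to 20 TPM, 0.54 at 20 to 100 TPM and 0.35 above that. A difference smaller than the half-width of its gene has an interval that includes 0. To be called after adjustment over all genes, a difference had to be larger than that half-width.

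**Figure D1:**
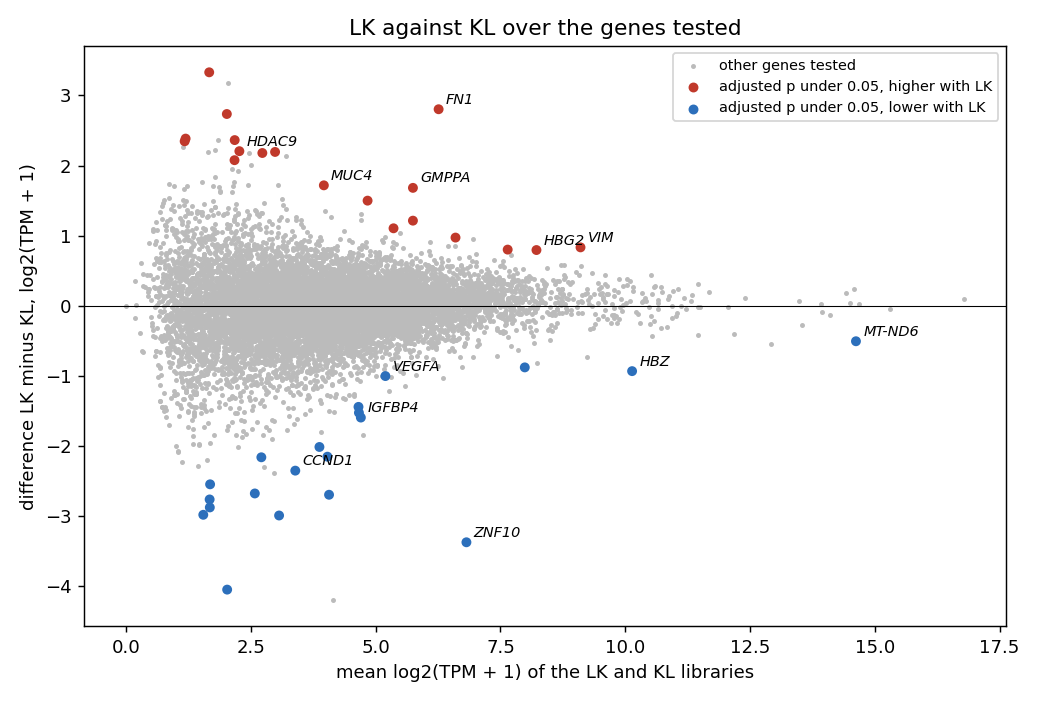
Difference between the libraries labelled LK and KL (y axis, log2 scale) against the mean level in these 4 libraries (x axis, log2 scale) for the 10127 genes tested. Red points are the 19 genes called higher and blue points the 20 called lower with LK, and FN1 stands apart from genes of its level.

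The other 6 libraries show on which side the called genes moved. For 30 of the 39 genes (76.9%), both KL libraries lay outside the range of the other 8 libraries of the series, above them for 17 genes and below them for 13. For 15 genes (38.5%), both LK libraries lay outside the range of the other 8. Both statements held for 7 genes and neither for 1, MAP3K4. Over all genes tested, the KL libraries lay outside the other 8 for 739 genes (7.30%), the LK libraries for 510 (5.04%), K for 544, L for 557 and sgGal4 for 1197 (11.8%). The mean of sgGal4 was nearer to LK than to KL for 27 of the 39, and the share over all genes tested was not computed. Being called between LK and KL favours genes in which 1 of these groups is extreme, so these shares describe the called genes and are not a test.

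**Figure D2:**
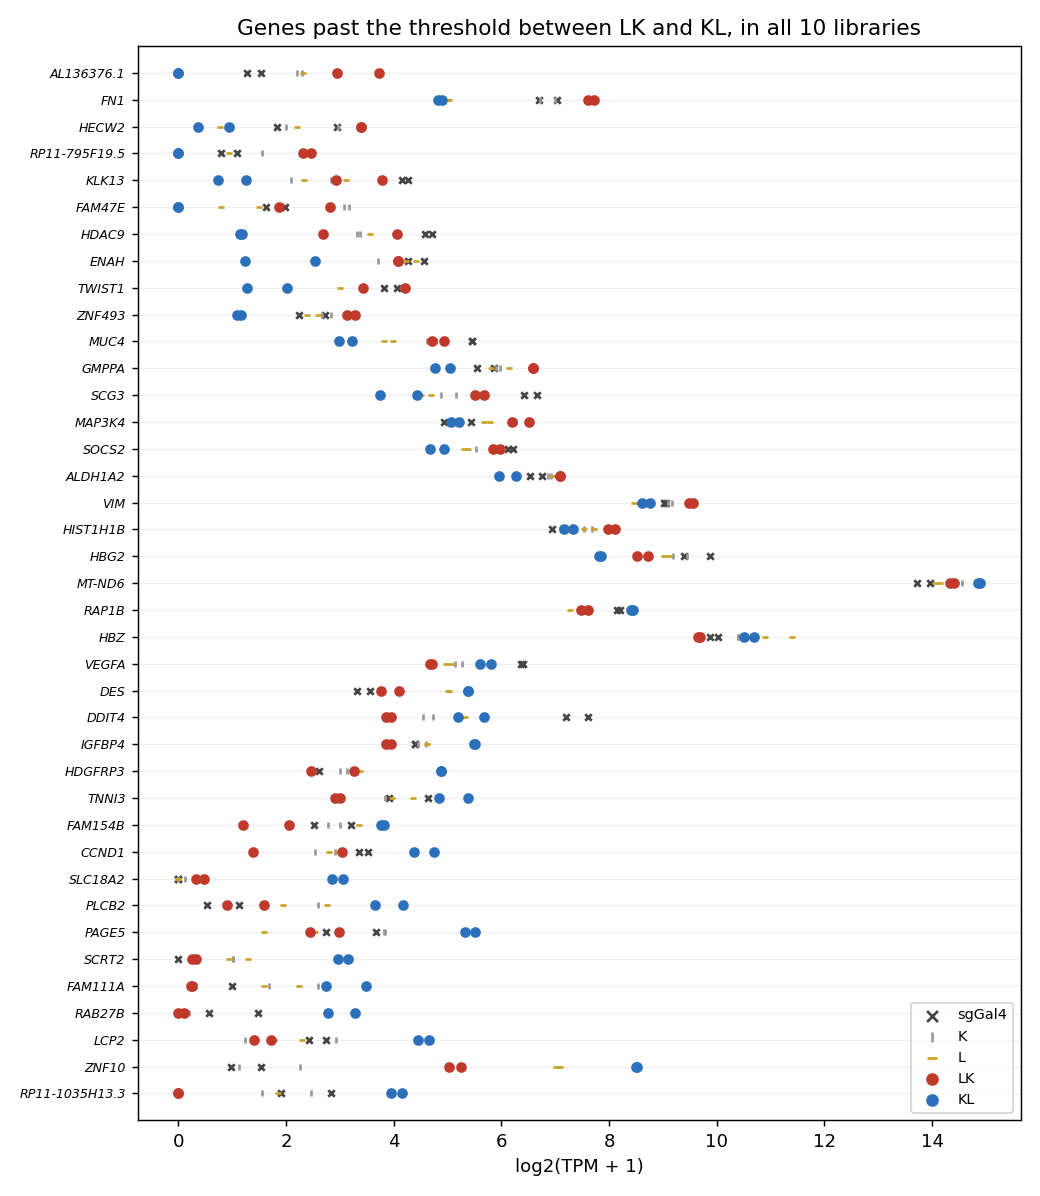
Level of the 39 called genes in every library (x axis, log2(TPM + 1); each point or mark is 1 library, coloured by group), ordered by the difference between LK and KL. For 30 of the genes both KL points lie outside the other 8 libraries.

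The β-like globin genes are the genes that HS2 serves in K562 cells. HBE1, the embryonic ε-globin gene, was at 557 and 458 TPM in the LK libraries and at 384 and 361 TPM in the KL libraries. HBG2, a fetal γ-globin gene, was at 365 and 421 TPM with LK and 222 and 229 TPM with KL. HBG1, the other γ-globin gene, was at 70.6 and 64.5 TPM with LK and 58.9 and 40.6 TPM with KL. For these 3 genes both LK libraries lay above both KL libraries, and all 4 lay below every sgGal4, K and L library. A lack of overlap between LK and KL was seen for 42.8% of all genes tested. The mean of LK was 1.36 times that of KL for HBE1, 1.74 times for HBG2 and 1.36 times for HBG1. HBG2 was the 1 gene of the 5 past the threshold (95% confidence interval of the log2 difference 0.46 to 1.14), against 0.385% of all genes tested. By p, HBG2 was in rank 39 of the 39 called genes. It was called in 4 of 16 alternatives, and over these its adjusted p ran from 0.0153 to 0.428. The intervals for HBE1 (0.16 to 0.71) and HBG1 (0.03 to 0.88) lay above 0 before adjustment over all genes, and neither gene passed after it in limma or in any alternative. Whether HBG2 differed more than HBE1 or HBG1 was not tested.

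The adult genes of the cluster were low. HBD, which encodes δ-globin, was at 22 and 19.1 TPM with LK and at 20.3 and 15.2 TPM with KL, and the libraries overlapped. HBB, the adult β-globin gene, was listed at 0 and 2.66 TPM with LK and at 0 and 2.25 TPM with KL. Neither gene passed the test, and the interval for HBB, from -1.31 to 1.48, leaves its difference unmeasured in practice.

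The sum of the 5 genes was 1015 and 965 TPM with LK and 686 and 648 TPM with KL, a ratio of the means of 1.48. The log2 difference of the sum was 0.57 (95% confidence interval 0.36 to 0.78, limma adjusted p = 0.0240). For HBG1 and HBG2 together the sums were 436 and 485 TPM with LK and 281 and 269 TPM with KL, with an interval of 0.42 to 1.06. Both sums separated the groups with no overlap. Leaving out 1 of the 4 libraries ended both calls, with adjusted p for the sum of 5 at 0.302 without LK replicate 1, 0.181 without LK replicate 2, 0.145 without KL replicate 1 and 0.239 without KL replicate 2, while the difference stayed between 0.53 and 0.61. The composition of the sum was alike in 3 of the libraries, with HBE1 at 54.9% of it in LK replicate 1, 56.0% in KL replicate 1 and 55.7% in KL replicate 2, and at 47.4% in LK replicate 2. The ratio of HBG2 to HBG1 was 5.18 and 6.53 with LK and 3.78 and 5.63 with KL, so the libraries overlapped in this ratio.

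The promoters of HBE1, HBG2 and HBG1, the most abundant genes of the cluster, are shown. The 150 bases before the annotated start are printed on the minus strand, from chr11:5291176-5291325 for HBE1 and chr11:5276012-5276161 for HBG2, with the CCAAT box, the CACCC box and the ATAAA box in capitals wherever they occur on either strand. The window of HBG1, at chr11:5271088-5271237, was identical to that of HBG2 in 150 of 150 bases, so the letters of these windows do not separate the 2 γ-globin genes.
HBE1 promoter: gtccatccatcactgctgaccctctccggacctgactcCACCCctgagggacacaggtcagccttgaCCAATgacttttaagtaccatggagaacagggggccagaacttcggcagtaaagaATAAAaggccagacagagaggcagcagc
HBG2 promoter: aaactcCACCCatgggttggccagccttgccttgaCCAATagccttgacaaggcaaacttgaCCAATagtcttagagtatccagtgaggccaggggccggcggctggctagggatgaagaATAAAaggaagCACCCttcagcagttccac
The HBE1 window holds 1 CCAAT, starting 83 bases before the start, and the γ-globin windows hold 2, at 115 and 88 bases. CACCC was found once for HBE1, at 112 bases, and at 144 and 19 bases for HBG2 and HBG1. ATAAA began 28 bases before the start of HBE1 and 30 bases before those of HBG2 and HBG1. Of 19862 windows of 150 bases before protein-coding genes, 26.4% hold CCAAT, 42.3% CACCC, 17.1% ATAAA and 1.83% all 3. TGAGTCA, the letters of the HS2 pair, was in none of the 3 globin windows and in 1.99% of all. A match of letters is no evidence of a bound factor.

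The α-like globin genes lie in another cluster, on chromosome 16, with an enhancer of their own, and their products pair with those of the β-like genes. Of these genes HBZ was lower in the libraries labelled LK, the direction opposite to that of HBG2. HBZ, the embryonic ζ-globin gene, was at 800 and 829 TPM with LK and at 1457 and 1659 TPM with KL, and at 1034 and 940 TPM with sgGal4. Both LK libraries were below the other 8 libraries, and the KL mean was 1.91 times the LK mean (95% confidence interval of the log2 difference -1.24 to -0.63). HBA1, an adult α-globin gene, was at 60.7 and 50.8 TPM with LK and at 109 and 94.6 TPM with KL. HBQ1, the θ-globin gene, was at 27.9 and 24.7 TPM with LK and at 47.0 and 41.6 TPM with KL. In HBA2, at 1.36 and 4.46 TPM with LK and 7.92 and 5.11 TPM with KL, the interval ran from -2.36 to 0.28. HBZ was thus 1 of 4 tested genes called, 3 had an unadjusted p under 0.05 (against 0.385% and 9.84% of all genes), and their median difference was -0.90, against -0.01 for all genes tested. HBA1 (adjusted p = 0.301) and HBQ1 (adjusted p = 0.299) did not pass, and HBM was listed at 0 in all 4 libraries. Leaving out 1 library raised the adjusted p of HBZ to as much as 0.240, and it passed in 9 of 16 alternatives.

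The balance of the 2 clusters differed accordingly. The summed TPM of the α-like genes divided by that of the β-like genes was 0.877 and 0.942 in the LK libraries and 2.36 and 2.78 in the KL libraries. It was 0.489 and 0.440 with sgGal4, 0.911 and 0.977 with K and 1.68 and 1.25 with L. The KL libraries were the highest of the 10, and the LK libraries lay beside the K libraries in this ratio. Both sums behind it were lower in LK than in K. The α-like sums were 890 and 909 TPM in LK and 1432 and 1478 TPM in K. The β-like sums were 1015 and 965 TPM in LK and 1572 and 1513 TPM in K. These ratios are given as a description, with no test.

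**Figure D3:**
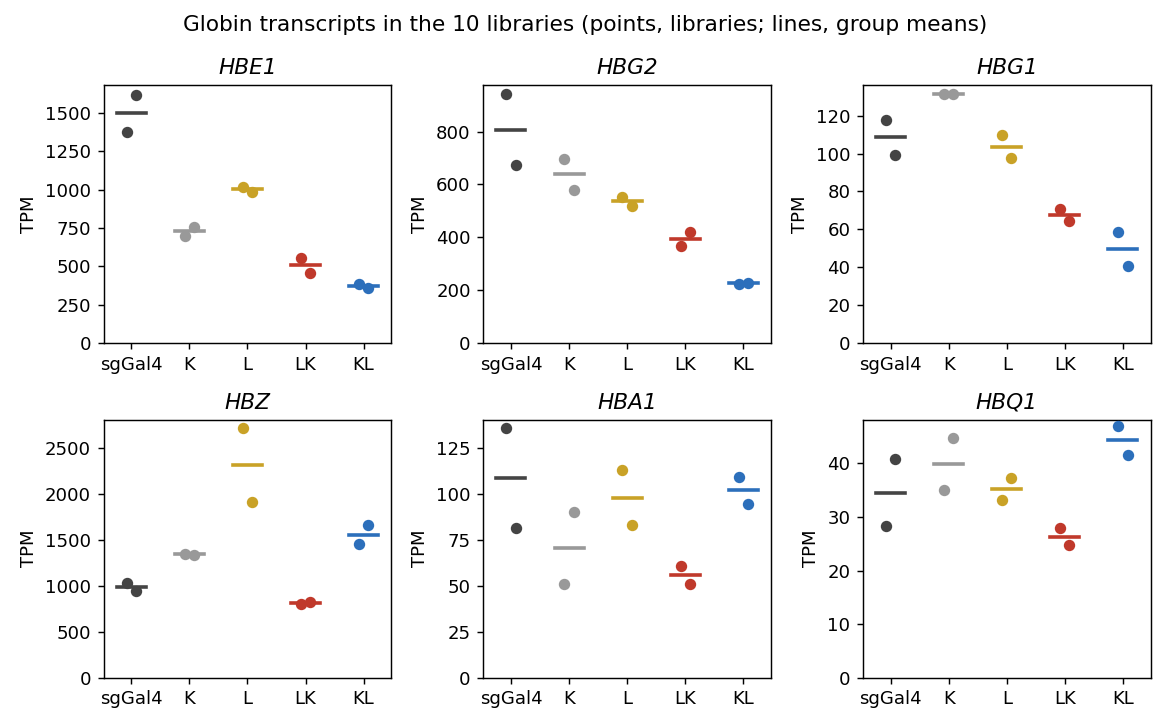
TPM of 3 β-like (HBE1, HBG2, HBG1) and 3 α-like (HBZ, HBA1, HBQ1) globin genes in the 10 libraries; each point is 1 library and each line a group mean. In the upper row the LK points lie above the KL points, and in the lower row below them.

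Genes around the β-globin cluster were looked at because a repressor on chromatin can act on neighbours. Besides the 5 globin genes, 9 tested genes lay within 1 Mb of the cluster, and 0 of them passed in limma (1 at an unadjusted p under 0.05), against 0.385% and 9.84% of all genes. The olfactory receptor genes OR51B4, OR51B2, OR51B5 and OR51I1, which begin upstream of HS2, had log2 differences of -0.38, -0.89, -0.48 and -0.38. OR51B4, the nearest at 31.1 kb from the cluster, was at 35.6 and 27.6 TPM with LK and at 43.7 and 38.4 TPM with KL. The intervals of all 4 receptor genes included 0. Transcripts of HBE1 and HBG2 that start far upstream run through this stretch in the annotation, and reads of overlapping genes cannot be told apart here. TRIM6, which encodes a ubiquitin ligase and lies 327 kb away, was at 4.99 and 5.37 TPM with LK and at 1.70 and 2.28 TPM with KL (adjusted p = 0.418). The other 4 were TRIM21 (-0.74), TRIM68 (-0.08), TRIM5 (0.17) and FAM160A2 (-0.10). The median difference of the 9 genes was -0.38. Farther out on chromosome 11 it was -0.05 over 75 genes at 1 to 5 Mb and 0.04 over 39 genes at 5 to 20 Mb.

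Among the genes higher with LK, FN1 gave the smallest p of all genes tested. FN1 encodes fibronectin, a protein of the extracellular matrix. It was at 209 and 195 TPM with LK and 28.7 and 27.4 TPM with KL, 7.20 times as high in the mean (95% confidence interval of the log2 difference 2.41 to 3.20, adjusted p = 4.19e-06). The sgGal4 libraries, at 103 and 129 TPM, stood between them, as did the K libraries at 127 and 104 TPM, and the L libraries were near KL at 31.6 and 31.3 TPM. The LK libraries were thus the highest and the KL libraries the lowest of the series in this gene. GMPPA, a regulator of the synthesis of GDP-mannose, was at 95.6 and 94.8 TPM with LK and 32.0 and 26.2 TPM with KL, again with all other libraries between. VIM, which encodes the intermediate filament vimentin, was at 754 and 713 TPM with LK and 431 and 392.4 TPM with KL. Here the LK libraries were the highest of the series, and the L libraries, at 351 and 375 TPM, lay below KL. ALDH1A2, an enzyme of retinoic acid synthesis, was at 135 TPM in both LK libraries and at 76.6 and 60.8 TPM with KL.

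In several of the genes higher with LK, the KL libraries were the lowest of the series. TWIST1, a basic helix-loop-helix transcription factor, was at 17.6 and 9.72 TPM with LK, 3.03 and 1.41 TPM with KL and 13.1 and 15.6 TPM with sgGal4. ENAH, a regulator of actin filaments, was at 15.9 and 16.0 TPM with LK, 1.36 and 4.80 TPM with KL and 22.5 and 18.3 TPM with sgGal4. MUC4, a membrane mucin, was at 25.1 and 29.6 TPM with LK, 6.92 and 8.32 TPM with KL and 42.7 and 42.6 TPM with sgGal4. The same order held for SCG3, a secretogranin, and for KLK13, a kallikrein protease. The remaining genes of this direction were ZNF493, MAP3K4, HECW2, FAM47E, SOCS2, HDAC9, HIST1H1B, AL136376.1 and RP11-795F19.5, besides HBG2. AL136376.1, RP11-795F19.5 and FAM47E were listed at 0 in both KL libraries, and their fold change is not given.

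HDAC9, a class IIa histone deacetylase, was at 15.6 and 5.45 TPM with LK and 1.28 and 1.21 TPM with KL, against 22.97 and 25.1 TPM with sgGal4.

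The genes lower with LK were mostly genes in which the KL libraries were high. IGFBP4, a binding protein for insulin-like growth factors, was at 13.5 and 14.5 TPM with LK and 44.5 and 44.01 TPM with KL, while the other 6 libraries held to between 20.1 and 23.6 TPM. LCP2, an adaptor of immune receptor and platelet signaling, was at 1.66 and 2.31 TPM with LK and 24.3 and 21.01 TPM with KL, against 5.65 and 4.35 TPM with sgGal4. PAGE5, a cancer-testis antigen on the X chromosome, was at 6.90 and 4.48 TPM with LK and 44.6 and 38.9 TPM with KL. In these 3 genes the KL libraries were above the other 8. RAP1B, a small GTPase, was at 178 and 194 TPM with LK and 337 and 349 TPM with KL. CCND1, the gene of cyclin D1, was at 1.63 and 7.18 TPM with LK and 25.9 and 19.9 TPM with KL, against 10.5 and 9.22 TPM with sgGal4. DES and TNNI3, genes of muscle desmin and cardiac troponin I, were also higher with KL, DES at 40.4 and 40.7 TPM against 16.1 and 12.7 TPM with LK, and TNNI3 at 40.5 and 27.7 TPM against 6.51 and 7.03 TPM.

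Among these genes SLC18A2, RAB27B and SCRT2 were low outside the KL libraries. They reached the mean of 1 TPM needed for testing through the KL libraries, so a high level there was a condition of their being tested. SLC18A2, the vesicular transporter of monoamines, was at 7.37 and 6.20 TPM with KL and at most 0.40 TPM in the other 8 libraries. RAB27B, a GTPase of granule release in platelets, was at 5.90 and 8.77 TPM with KL and 0.08 and 0 TPM with LK, and SCRT2, a zinc finger repressor, was at 6.79 and 7.87 TPM with KL and 0.26 and 0.19 TPM with LK. PLCB2, a phospholipase C, was at 17.1 and 11.6 TPM with KL and 0.86 and 2.00 TPM with LK. In PLCB2 the K and L libraries lay between, at 2.06 to 5.79 TPM. RP11-1035H13.3 was listed at 0 in both LK libraries and was at 14.4 and 16.8 TPM with KL. The log2 differences of FAM111A, HDGFRP3 and FAM154B were -2.88, -2.01 and -2.16.

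Erythroid regulators outside the globin clusters were read next, since they act on both clusters. Of the 17 tested erythroid transcription factors and cofactors, 0 passed in limma, against 0.385% of all genes (4 at an unadjusted p under 0.05, all with a negative difference, against 9.84%). The median difference was -0.08, between -0.18 and -0.07 in the alternatives. ZFPM1, the cofactor FOG1 of GATA1, was at 2.20 and 3.81 TPM with LK and 13.6 and 11.2 TPM with KL (adjusted p = 0.102). RUNX1, at 29.8 and 32.3 TPM with LK and 48.6 and 65.8 TPM with KL, and LMO2, at 12.7 and 13.3 TPM with LK and 30.2 and 23.3 TPM with KL, are partners in the same regulatory network, and neither passed (adjusted p = 0.173 and 0.256). CBFA2T3, a corepressor of that complex, was at 61.2 and 59.4 TPM with LK and 86.9 and 87.8 TPM with KL. The most abundant factor, TCF3, differed by -0.07. KLF1 and NFE2 were added after their values were seen. KLF1, the activator of adult β-globin, was at 39.3 and 35.9 TPM with LK and 42.6 and 36.96 TPM with KL, and NFE2 encodes a subunit of the factor that binds the HS2 pair and was at 116 and 111 TPM with LK and 131 and 107 TPM with KL. The libraries overlapped for both.

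Of 14 regulators of fetal globin, 0 passed (1 at an unadjusted p under 0.05, against 0.385% and 9.84% of all genes). The median was 0.07, and without LK replicate 2 it was 0.03, without KL replicate 1 0.15 and without KL replicate 2 -0.09. The gene with the small p was BCL11A, the repressor of γ-globin in adult cells, at 1.58 and 3.65 TPM with LK and 9.84 and 10.0 TPM with KL (95% confidence interval of the log2 difference -2.55 to -0.77, adjusted p = 0.135). Both KL libraries were above the other 8 libraries of the series. BCL11A did not pass in any alternative, and a link to HBG2 was not tested. CHD4, the most abundant member, differed by 0.38 (adjusted p = 0.545), and by 0.10 to 0.66 in the alternatives. The libraries overlapped for CHD4.

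In heme synthesis and iron handling no gene passed. Of 14 tested genes of heme synthesis, 12 had a negative difference (50.8% of all genes), with a median of -0.22, and 0 passed (1 at an unadjusted p under 0.05, against 0.385% and 9.84% of all genes), UROS at 9.18 and 9.54 TPM with LK against 16.3 and 14.2 TPM with KL. Of 12 genes of iron handling, 10 were negative, with a median of -0.31, and 0 passed (3 at an unadjusted p under 0.05). The same shares of all genes apply. FTH1, the heavy chain of ferritin, was at 1507 and 1503 TPM with LK and 1916 and 1822 TPM with KL. SLC25A37, the mitochondrial iron importer mitoferrin, was at 58.5 and 62.4 TPM with LK and 74.7 and 92.0 TPM with KL. FTL, the ferritin light chain and the most abundant member, was at 5875 and 5286 TPM with LK and 5394 and 4952 TPM with KL, and the libraries overlapped. The median over all genes tested was -0.01. Of 18 genes of the red cell membrane 12 were positive and 0 passed (3 at an unadjusted p under 0.05, against 0.385% and 9.84% of all genes), with a median of 0.15, which became negative without LK replicate 2 (-0.06). EPB41, which encodes protein 4.1 of the membrane skeleton, was at 237 and 201 TPM with LK and 145 and 148 TPM with KL (adjusted p = 0.165).

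The genes of the ATF4 response, which cells use under amino acid shortage and stress of the endoplasmic reticulum, included DDIT4 and VEGFA among the called genes. Of 24 tested genes, 23 had a negative difference, in 18 of them without overlap of the libraries (42.8% of all genes tested), and the median was -0.54, between -0.59 and -0.51 in the alternatives. The test was passed by 2 of them, against 0.385% of all genes, and 9 had an unadjusted p under 0.05, against 9.84%. DDIT4, an inhibitor of mTORC1 signaling, was at 14.5 and 13.4 TPM with LK and 49.9 and 35.4 TPM with KL. VEGFA, the vascular growth factor, was at 25.1 and 24.6 TPM with LK and 54.7 and 47.3 TPM with KL. Both genes were highest with sgGal4, DDIT4 at 146 and 195 TPM and VEGFA at 81.4 and 83.5 TPM, so LK lay farther from the control than KL. ATF4 itself was at 86.4 and 94.4 TPM with LK and 129 and 134 TPM with KL (adjusted p = 0.262). ASNS, asparagine synthetase, was at 19.4 and 20.1 TPM with LK and 39.0 and 39.6 TPM with KL, and PSAT1, an enzyme of serine synthesis, at 16.8 and 11.96 TPM with LK and 31.6 and 41.0 TPM with KL (adjusted p = 0.0630). CBS, the most abundant member, was at 122 and 122.9 TPM with LK and 133 and 171 TPM with KL. The summed TPM of the list was 692 and 659 with LK, 951 and 960 with KL and 1024 and 1421 with sgGal4.

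The genes of sterol and fatty acid synthesis are controlled by SREBP factors. Of 31 tested genes 0 passed (6 at an unadjusted p under 0.05, against 0.385% and 9.84% of all genes, and 5 of the 6 with a positive difference). A positive difference was found for 22 of the 31, and the median was 0.16, between 0.15 and 0.31 in the alternatives. CYP51A1, which removes a methyl group from lanosterol, was at 23.9 and 24.7 TPM with LK and 12.2 and 13.8 TPM with KL. FADS1, a fatty acid desaturase and the 1 lower gene of the 6, named after its values were seen, was at 85.0 and 109 TPM with LK and 123.5 and 142 TPM with KL. The list's most abundant gene, FASN, was at 128 and 142 TPM with LK and 117 and 91.3 TPM with KL. In glycolysis, 0 of 16 passed (3 at an unadjusted p under 0.05, 2 positive and 1 negative, against 0.385% and 9.84% of all genes) and the median was 0.10, between 0.01 and 0.22 in the alternatives. The negative one was SLC2A3, a glucose transporter gene, with -0.52. PKM, pyruvate kinase, was at 292 and 302 TPM with LK and 216 and 197 TPM with KL, and GAPDH at 1765 and 1872 TPM with LK and 1629 and 1549 TPM with KL. Of 13 immediate early genes 0 passed (2 at an unadjusted p under 0.05, against 0.385% and 9.84% of all genes), with a median of 0.28, between 0.22 and 0.32 in the alternatives. EGR1 was at 51.2 and 46.0 TPM with LK and 32.6 and 27.9 TPM with KL, and ZFP36, a protein that destabilizes messages, at 18.6 and 15.9 TPM with LK and 29.8 and 28.6 TPM with KL. MYC, the most abundant, differed by -0.02.

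Among histone genes of the kind transcribed in S phase, HIST1H1B was the 1 called, against 0.385% of all genes tested. Of 39 tested, 35 had a positive difference, in 26 of them without overlap of the libraries (42.8% of all genes tested), and the median was 0.31, between 0.23 and 0.37 in the alternatives. HIST1H1B, a linker histone gene, was at 253 and 274 TPM with LK, 160 and 141 TPM with KL and 122 and 141 TPM with sgGal4. At an unadjusted p under 0.05, 16 were higher and 1, HIST1H2AD, lower, against 9.84% of all genes in either direction. HIST1H1C was at 1689 and 1717 TPM with LK and 1189 and 1319 TPM with KL, and HIST1H2BK, the most abundant, at 3089 and 3195 TPM with LK and 2471 and 2616 TPM with KL. The summed TPM of the histone genes was 17546 and 17520 with LK and 14144 and 14333 with KL, against 11193 and 14300 with sgGal4. Many histone genes are near-identical copies, and HIST1H2AD, listed at 106 and 52.6 TPM with KL and at 0 in both K libraries, is uncertain for this reason. These transcripts also lack a poly(A) tail for the most part. The labels name poly(A) selection with a directional kit and the methods name the Ovation kit, and the part of the library preparation was not tested. Of 24 genes of the cell cycle 0 passed (2 at an unadjusted p under 0.05, both with a negative difference, against 0.385% and 9.84% of all genes). The median was 0.06, between 0.01 and 0.09 in the alternatives, and a difference between the lists was not tested. CCNB2, a mitotic cyclin, was at 53.0 and 45.0 TPM with LK and 82.6 and 80.4 TPM with KL (adjusted p = 0.208), and MCM4, the most abundant, at 287 and 322 TPM with LK and 365 and 247 TPM with KL. Of 76 ribosomal protein genes 0 passed (13 at an unadjusted p under 0.05, 7 positive and 6 negative, against 0.385% and 9.84% of all genes). Their median was 0.01, between -0.03 and 0.06 in the alternatives.

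**Figure D4:**
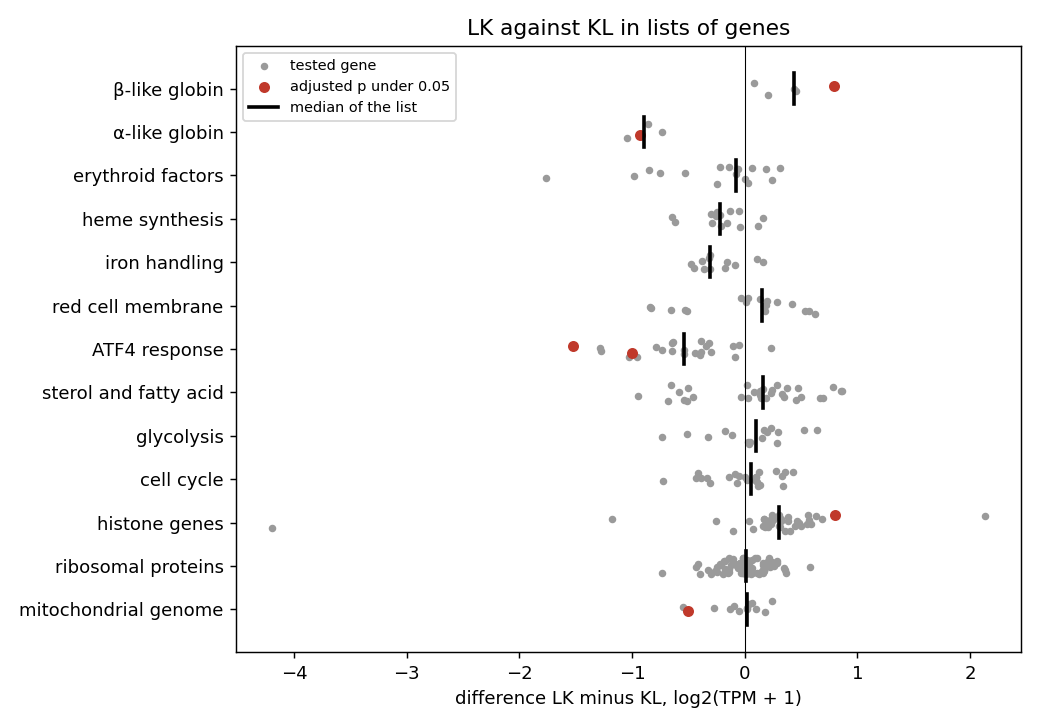
Difference between LK and KL (x axis, log2 scale) of the tested genes in 13 lists; each point is 1 gene, red where the adjusted p is under 0.05, and the bar is the median of the list. The ATF4 response lies mostly left of 0 with a median of -0.54 and the histone genes mostly right of 0 with a median of 0.31.

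Among the 13 genes of the mitochondrial genome, 7 had a positive and 6 a negative difference, 1 passed and 5 had an unadjusted p under 0.05 (against 0.385% and 9.84% of all genes), with a median of 0.02 that was negative without LK replicate 2 (-0.03) and without KL replicate 1 (-0.04) and 0 with quantile normalization. MT-ND6, the gene of a complex I subunit and the 1 protein gene read from the light strand, was at 20643 and 21700 TPM with LK and 29636 and 30489 TPM with KL, above the other 8 libraries, and it passed the test (95% confidence interval -0.71 to -0.30). MT-ND5, which lies on the opposite strand beside it, was at 6366 and 6441 TPM with LK and 9358 and 9414 TPM with KL (adjusted p = 0.0863). The labels name a directional kit and the methods another. Whether the counting used the strand is not stated, so reads from the strand opposite to a gene may have been counted for it. MT-ATP8, the most abundant, was at 113195 and 120354 TPM with LK and 102265 and 115744 TPM with KL, and the libraries overlapped.

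The cofactors of the 2 repressors were read because both constructs depend on them. Of 14 tested genes of the KRAB corepressor system, ZNF10 was the 1 that passed (1 at an unadjusted p under 0.05, against 0.385% and 9.84% of all genes), and the median was 0.04. This median became negative without LK replicate 1 (-0.01) and without KL replicate 2 (-0.05). TRIM28, the protein that KRAB binds and the most abundant of them, was at 286 and 199 TPM with LK and 279 and 190 TPM with KL. SETDB1, the methyltransferase, added after its values were seen, was at 28.3 and 30.9 TPM with LK and 32.6 and 33.4 TPM with KL. Of 17 genes of the LSD1 and CoREST complex 0 passed (1 at an unadjusted p under 0.05, against 0.385% and 9.84% of all genes), with a median of 0.08. Without LK replicate 1 the median was 0.17, and without KL replicate 2 it was -0.01. The gene with the small p was PHF21A, the subunit BHC80, at 40.4 and 51.5 TPM with LK and 23.2 and 33.6 TPM with KL. RCOR1, the scaffold CoREST, was at 14.1 and 11.5 TPM with LK and 6.50 and 10.7 TPM with KL (adjusted p = 0.676). Among 9 histone deacetylases, HDAC9 was the 1 that passed (1 at an unadjusted p under 0.05, with the same shares of all genes), and HDAC2, the most abundant, was at 89.7 and 73.1 TPM with LK and 104 and 102 TPM with KL.

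STAT5 acts downstream of BCR-ABL in K562 cells, and SOCS2, one of its target genes, was higher with LK, at 61.9 and 56.6 TPM against 24.6 and 29.6 TPM with KL and 68.4 and 73.0 TPM with sgGal4. The KL libraries were below the other 8. CISH, another target, was at 22.4 and 26.3 TPM with LK and 13.1 and 19 TPM with KL (adjusted p = 0.497). SOCS2 was the 1 gene called of 11 (2 at an unadjusted p under 0.05, against 0.385% and 9.84% of all genes), and the median was -0.03, between -0.11 and 0.12 in the alternatives. STAT5A, at 80.9 and 108 TPM with LK and 119 and 116 TPM with KL, the most abundant of them, did not pass.

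Markers were read to see what cells the libraries hold. The K562 markers HBE1, HBG2, HBZ, TFRC, KLF1, TAL1 and ALAS2 were above 6 TPM in all 4 libraries, and GATA1 was listed at 0 in each. TFRC, the transferrin receptor gene, was at 176 and 154 TPM with LK and 206 and 219 TPM with KL. Beside the counts of markers stand the shares of all genes tested, 0.385% called and 9.84% at an unadjusted p under 0.05. A gene listed at 0 is not shown to be silent, since 13 of 89 ribosomal protein genes were also listed at 0 in all 4 libraries and no read counts were at hand. Of 17 megakaryocyte genes 7 were tested, 6 were listed at 0 in all 4 libraries, among them GP9 and PF4, and the summed TPM was 69.7 and 73.8 with LK and 79.3 and 71.5 with KL, most of it from GP1BB. RAB27B was the 1 called. Of the 7 genes 3 had a positive difference, among them GP1BB (0.20), and the median of -0.17 kept its sign in 14 of 16 alternatives. It was -0.64 without LK replicate 1, 0.10 without LK replicate 2 and 0.20 with the filter at 10 TPM. RAB27B and ITGA2B, both with a negative difference, reached the mean needed for testing through the KL libraries and count in this median. ITGA2B was at 0.80 and 0.60 TPM with LK and 4.81 and 1.83 TPM with KL, and TUBB1 at 1.14 and 1.34 TPM with LK and 4.75 and 3.37 TPM with KL. Of 12 myeloid genes 3 were tested and 0 called (1 at an unadjusted p under 0.05, CD33), with sums of 42.2 and 55.9 TPM for LK and 40.4 and 36.0 TPM for KL, and MPO, S100A8 and S100A9 were listed at 0. Of 14 lymphoid genes 3 were tested and 0 called (2 at an unadjusted p under 0.05, in opposite directions). Their median was 1.38, but 0.59 without LK replicate 1, 0.32 without KL replicate 2 and 0 with no filter. CD3D was at 21.3 and 8.92 TPM with LK and 10.9 and 1.75 TPM with KL, and CD3G at 7.47 and 0.89 TPM with LK and 0 and 0.58 TPM with KL. PTPRC, the gene of CD45 and the most abundant of these, was at 17.6 and 13.1 TPM with LK and 29.4 and 32.8 TPM with KL (adjusted p = 0.126), and MS4A1 and CD3E were listed at 0. Of 11 listed mast cell, basophil and eosinophil genes 2 were tested and 0 called (1 at an unadjusted p under 0.05, KIT), and the sums were 5.86 and 2.5 TPM with LK and 6.49 and 2.82 TPM with KL, led by PRG2.

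Of the epithelial and stromal markers, VIM was higher with LK. All 7 tested genes of 12 had a positive difference, with a median of 0.38, and VIM was the 1 called (3 at an unadjusted p under 0.05, against 0.385% and 9.84% of all genes), in 11 of 16 alternatives and in no fit that left out an LK or KL library. KRT19, a keratin, was at 46.4 and 42.9 TPM with LK and 32.7 and 26.4 TPM with KL, and EPCAM, an epithelial adhesion protein, at 49.8 and 52.0 TPM with LK and 38.7 and 26.9 TPM with KL. The summed TPM was 1064 and 1051 with LK, 665 and 642 with KL and 850 and 985 with sgGal4, most of it from VIM, while COL3A1, CDH5 and LUM were listed at 0 in all 4 libraries and CDH1 was at 0 in 3 of them and at 0.07 TPM in LK replicate 2. The part of other cells in the result was not tested. The keratins KRT8 and KRT18 were expressed in every library of the series, the control included, at 62.2 TPM or more. With bulk samples, fewer cells with a transcript and less of it in each cell cannot be told apart.

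The chromosomes were compared because K562 is aneuploid and its sublines can differ in chromosome number. On GENCODE positions, 9937 of the 10127 tested genes (98.1%) were placed. The median difference between LK and KL lay between -0.06 and 0.06 for the 22 chromosomes other than 21. On chromosome 21 it was -0.21, and the sign held in 16 of 16 alternatives (-0.24 to -0.15). Of its 97 tested genes 70 had a negative difference, against 50.8% of all genes, and 0 passed in limma (17 at an unadjusted p under 0.05, against 9.84%). The median deviation of these genes from their mean over the 10 libraries was -0.03 and -0.02 in the LK libraries and 0.18 and 0.16 in the KL libraries. It lay below 0 in the other 6 libraries, so the KL libraries stood apart. Copy number was not measured, and its part in this difference was not tested.

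**Figure D5:**
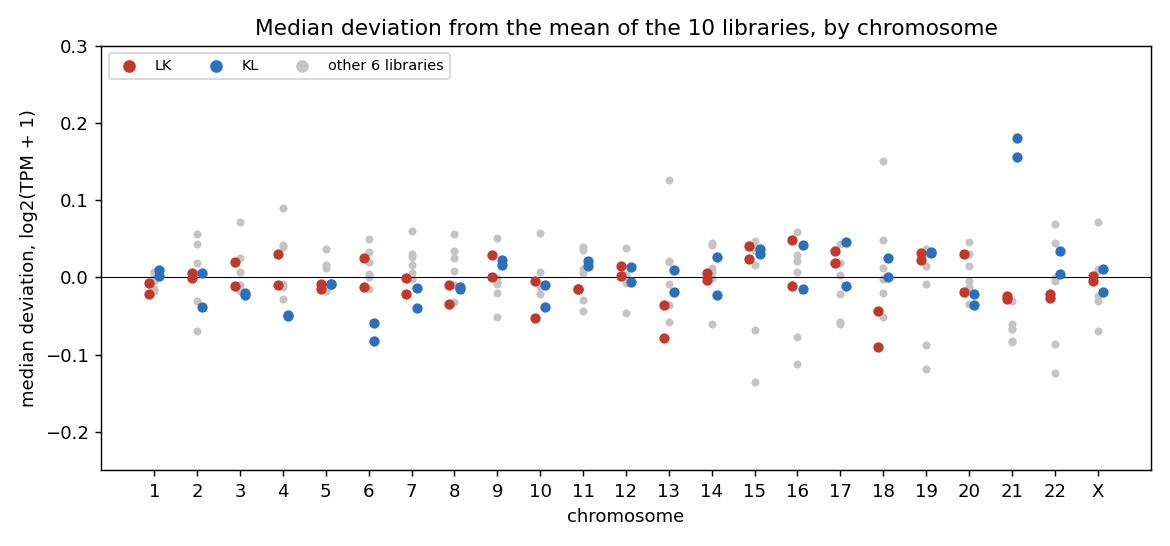
Median deviation of the tested genes of each chromosome from their mean over the 10 libraries, on the log2 scale, in each library. On chromosome 21 the KL libraries, at 0.18 and 0.16, lie above the other 8.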

How the data were processed

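RNA-seq of K562 cells was read in 10 libraries, 2 in each of 5 groups named by the labels. The authors aligned reads to hg19 with STAR (version 2.5.2b) and deposited TPM values from RSEM, according to the submitters' processing notes. The depth of each library is unknown from TPM.

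From these values log2(TPM + 1) was computed, with a pseudocount of 1, for the 10127 of 20535 genes whose mean reached 1 TPM. All groups were fitted together by limma 3.58.1 under R 4.3.3 (labels read with jsonlite 2.0.0), with a mean-variance trend and 5 residual degrees of freedom. The variance of each gene was moderated by empirical Bayes toward this trend, so its p also draws on the spread of other genes. LK was compared with KL, p was adjusted by Benjamini-Hochberg over the genes tested, and 0.05 was the threshold. Sums of globin genes were each fitted as 1 added gene. The procedure was tested on simulated data.

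Genes were placed with GENCODE release 44 on GRCh37, which placed 9937 genes, 638 of them through older symbols. Python (version 3.11.15), numpy (version 2.4.6) and matplotlib (version 3.10.9) served for positions, sequences and plots.

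The genes named are the β-like and α-like globin genes, the effector genes, every called gene, tested genes within 1 Mb of the β-globin cluster, and from each list the called members, up to 4 further members with the smallest p and the most abundant member. Members and lists were chosen with earlier results of these data known. KLF1, NFE2, SETDB1, FADS1, HIST1H2AD, the markers at 0 and the neighbours of called genes were named after their values were seen.

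The alternatives were a pseudocount of 0.1, no filter, a filter at 10 TPM, median-of-ratios factors, quantile normalization, removal of mitochondrial genes, no trend, only LK and KL, the 8 sgHS2 libraries, a replicate block, and leaving out each LK and KL library. A fit without L and a fit without sgGal4 replicate 1 were added after seeing the data.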

Additional observations from a re-analysis of the deposited data

How the results depend on the processing

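The 39 genes called kept their direction in every alternative in which they were tested, and FN1 and ZNF10 were called in all 16. Some genes that did not pass changed sign, with HBB keeping its sign in 13 of 15 alternatives, TRIM28 in 13 of 16 and MCM4 in 12 of 16. The count of genes called was 20 with no filter, 17 with no trend and 23 with only LK and KL, and in the leave-one-out fits it ran from 3 to 4, where the lone library is assumed to vary like the other groups. In the other alternatives it lay between 26 and 52. Of the 2 effector genes, 1 was called throughout.

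The number of β-like globin genes called fell from 1 to 0 with the pseudocount of 0.1, no filter, median-of-ratios factors, quantile normalization, mitochondrial genes removed, no trend and the replicate block, in the leave-one-out fits (0 in each) and without the L libraries, the last chosen after seeing the data.

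The sum of the 5 β-like genes missed the threshold with no filter (0.57, adjusted p = 0.0719), median-of-ratios factors (0.57, adjusted p = 0.0804) and no trend (0.57, adjusted p = 0.427), and in the leave-one-out fits (0.53 to 0.61, adjusted p 0.145 to 0.302). Over all alternatives its adjusted p ran from 0.00873 to 0.427. The sum of HBG1 and HBG2 missed it with the pseudocount of 0.1 (0.74, adjusted p = 0.0667), no filter (0.74, adjusted p = 0.162), median-of-ratios factors (0.74, adjusted p = 0.146), quantile normalization (0.65, adjusted p = 0.127), mitochondrial genes removed (0.72, adjusted p = 0.105), no trend (0.74, adjusted p = 0.358) and without the L libraries (0.74, adjusted p = 0.0705), and in the leave-one-out fits (0.66 to 0.82, adjusted p 0.200 to 0.424). Over all alternatives its adjusted p ran from 0.0144 to 0.424. The cause was not tested, except that the leave-one-out fits have fewer samples.

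With the replicate block 34 genes were called, 33 of them among the 39, and the sum of HBG1 and HBG2 was 0.74 (adjusted p = 0.0522). The correlation of deviations between libraries of like number was 0.0135 for LK and KL and between -0.0213 and 0.0229 over all groups, so the numbers do not pair the samples. The cause was not tested.

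The depth of the libraries is unknown, so no limit that rests on read counts can be given. With 2 libraries a group, genes at 1 to 5 TPM had a median half-width of the 95% confidence interval of 1.02, and genes above 100 TPM 0.35.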

Other observations

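Windows of 10 Mb with at least 15 tested genes were read for the median deviation from the mean over the 10 libraries. The window size and the limit of 0.12 were chosen after seeing the data. Of 239 windows, both KL libraries lay above 0.12 in 3 and below -0.12 in 4, and both LK libraries in 0 and 0. The 3 windows were 30 to 40 Mb on chromosome 21 (KL 0.24 and 0.14), 40 to 50 Mb on chromosome 21 (KL 0.16 and 0.24) and 50 to 60 Mb on chromosome 19 (KL 0.16 and 0.18). The 4 were 20 to 30 Mb on chromosome 19 (KL -0.27 and -0.42), 140 to 150 Mb (KL -0.19 and -0.20) and 160 to 170 Mb (KL -0.16 and -0.28) on chromosome 6, and 100 to 110 Mb on chromosome 11 (KL -0.20 and -0.15). In this last window the LK libraries lay at -0.19 and -0.08, and the median difference between LK and KL was -0.03. Windows of sgGal4, K and L were not counted, but both libraries of each also passed the limit somewhere. The sgGal4 libraries were at 0.26 and 0.22 at 100 to 110 Mb on chromosome 3. The K libraries were at -0.19 and -0.17 at 20 to 30 Mb on chromosome 12, and the L libraries at 0.14 and 0.16 at 220 to 230 Mb on chromosome 2. In the window of 50 to 60 Mb on chromosome 19, 88 of 137 genes had a negative difference, with a median of -0.17 that kept its sign in 16 of 16 alternatives. Copy number was not measured.

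Called genes within 1 Mb of each other were HDAC9 and TWIST1 on chromosome 7, 113 kb apart, with log2 differences of 2.21 and 2.18, and DES and GMPPA on chromosome 2, 72.2 kb apart, with -1.44 and 1.68. Beside HDAC9 and TWIST1 the tested genes SNX13 and TWISTNB differed by -0.11 and 0.18. Beside DES and GMPPA 27 other tested genes lay within 1 Mb. Both pairs were singled out after their values were seen, and whether neighbours changed together was not tested.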
